A study of Mus musculus with 7 samples.

Results

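Accessible chromatin was examined at 10 macrophage chemokine genes: Ccl2, Ccl7, Ccl5, Ccl9, Ccl3 and Ccl4 on chromosome 11, and Cxcl3, Cxcl1, Cxcl2 and Cxcl10 on chromosome 5. A peak was a member when its midpoint lay inside the body of one of these genes, or within 100000 bp with that gene as the nearest protein-coding gene. The rule took 462 of the 975394 deposited peaks. Overlapping peaks of the 7 lists were joined into 344401 regions, and the same rule applied to their midpoints gave 105 member regions. The farthest lay 37875 bp from its gene, Cxcl1, so none was near the 100000 bp limit. All positions are on mm10.

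The measurements were ATAC-seq profiles, made by letting a transposase tag open DNA with adapters, of RAW264.7 cells, a mouse macrophage line that turns toward osteoclasts when given RANKL. The groups were RANKL at 50 ng/ml with the BET inhibitor I-BET at 500 nM (2 libraries), RANKL alone (2), I-BET alone (1, labelled replicate 2) and untreated cells (2), with treatments lasting 4 h. BET inhibitors block the bromodomains with which Brd2 and related proteins bind acetylated chromatin. All libraries came from 1 cell line, and the labels do not say that replicates were separate cultures, so the spread between them may be technical.

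Chemokines are small secreted proteins that draw leukocytes along a gradient by binding G-protein-coupled receptors. Ccl2 and Ccl7 act mainly on monocytes through Ccr2. Ccl3, Ccl4 and Ccl5 attract monocytes and T cells, and Ccl3 and Ccl9 are also known as signals for osteoclast precursors. Cxcl1, Cxcl2 and Cxcl3 attract neutrophils through Cxcr2, whereas Cxcl10 is induced by interferons and attracts activated T cells through Cxcr3. Many of these genes are textbook targets of NF-kB, which RANKL activates, and they lie in clusters of related copies.

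Promoter sequences of RefSeq (build GRCm38.p6) were held for 6 of the 10 genes (Ccl9, Ccl3, Cxcl3, Cxcl1, Cxcl2 and Cxcl10). The stretches before the starts of the Cxcl genes are shown because peaks stood over these letters at some of the genes and not at others. They run 5′ to 3′ on the gene's strand and end at the base before the start. Capitals mark matches, on either strand and joined where they overlap, to the NF-kB motif (GGG, any 5 bases, CC), AP-1 (TGANTCA), the interferon-stimulated response element or ISRE (GAAA, any 2 bases, GAAA) and the TATA box (TATAAA). They cover chr5:90785951-90786100 (plus strand) for Cxcl3, chr5:90891095-90891244 (plus) for Cxcl1, chr5:90903749-90903898 (plus) for Cxcl2 and chr5:92348890-92349139 (minus) for Cxcl10.
Cxcl3: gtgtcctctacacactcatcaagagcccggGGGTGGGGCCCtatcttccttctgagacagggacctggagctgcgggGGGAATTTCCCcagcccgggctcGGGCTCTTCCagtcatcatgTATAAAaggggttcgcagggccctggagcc
Cxcl1: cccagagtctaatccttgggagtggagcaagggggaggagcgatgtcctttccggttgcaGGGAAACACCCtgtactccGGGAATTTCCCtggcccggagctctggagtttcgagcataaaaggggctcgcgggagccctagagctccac
Cxcl2: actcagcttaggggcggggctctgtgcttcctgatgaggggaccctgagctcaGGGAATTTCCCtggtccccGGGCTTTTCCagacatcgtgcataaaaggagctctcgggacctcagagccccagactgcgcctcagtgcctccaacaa
Cxcl10: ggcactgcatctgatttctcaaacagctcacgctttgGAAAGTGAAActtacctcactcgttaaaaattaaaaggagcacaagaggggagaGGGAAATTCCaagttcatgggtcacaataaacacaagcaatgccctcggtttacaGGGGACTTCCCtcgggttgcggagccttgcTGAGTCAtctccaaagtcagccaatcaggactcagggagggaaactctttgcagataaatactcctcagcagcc

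The NF-kB letters stood in 5 of the 6 member promoters, all but that of Ccl3, and in 50.8% of the 32851 RefSeq promoters of 300 bp, so the match is a common one. The full decamer GGGAATTTCC was rare, in 29 promoters (0.0883%), among them those of Cxcl3 (from -73 to -64, counted from the start), Cxcl1 (-71 to -62) and Cxcl2 (-97 to -88). This decamer was searched after the sequences had been read. TGANTCA stood in the promoters of Ccl9 and Cxcl10 and in 7.81% of all promoters. The ISRE letters stood in that of Cxcl10 and in 3.44% of all. TATAAA stood in those of Ccl9 and Cxcl3 and in 13.6% of all. Neither TTGCNNAA (C/EBP) nor GAGGAAGT (PU.1) stood in the 6 member windows, and they were found in 10.8% and 3.20% of all promoters. The Cxcl1, Cxcl2 and Cxcl3 promoters had 53.2% to 57.6% identical aligned positions, against 42.9% to 50.4% for the other pairs of the 6. No run longer than 20 bp was shared between the Cxcl1, Cxcl2 and Cxcl3 windows. Only these windows were compared, and how uniquely reads could be placed there was not tested.

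The lists held 117175 to 166369 peaks, and read depth is unknown because no read counts were given. Untreated replicate 1 stood apart: 25.3% of its peaks had a -log10 q of at least 5, against 36.8% to 74.0% in the other 6 lists, and 42.9% of its regions were called by itself alone, where the others had 8.95% to 27.1%. All 10 macrophage markers, Spi1 and Csf1r among them, had a region within 1000 bp of the gene start (either gene end where no start was held) in every library. Of 6 markers for each other cell type, such regions were called per library for 2 to 5 of B lymphocytes and 3 to 4 of T lymphocytes. They were called for 2 to 5 of fibroblasts and osteoblasts, and 2 to 4 of granulocytes. Ebf1, Cd4, Lck, Cd28, Col1a1, Elane and S100a8 had such a region in every library, and Cd3e, Cd8a, Dcn, Mpo and Ly6g in none. In a bulk profile, fewer cells with an open site and less access per cell cannot be told apart.

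Part of the chromatin at the chemokine genes was called open in every library, whatever the treatment. Of the 105 member regions, 33 (31.4%) were called in all 7 libraries, against 43170 (12.5%) of all regions, and 32 (30.5%) were called in 1 library only, against 55.6% of all. The member regions had a median length of 571 bp, against 308 bp over all regions, and those called everywhere 1226 bp, against 1312 bp. Chromosome 11 held 76 of them, with 23 called everywhere, and chromosome 5 held 29, with 10 called everywhere. Ccl7, Cxcl3 and Cxcl10 had none called in all 7 libraries.

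The number of member peaks was 60 and 83 in the RANKL+I-BET libraries, 70 and 72 in the RANKL libraries, 65 in the I-BET library, and 47 and 65 in the untreated libraries. The lowest count was that of untreated replicate 1. The groups did not separate once list length was considered: per 100000 peaks of the list, the member peaks numbered 47.9 and 49.9 with RANKL+I-BET, 45.4 and 54.3 with RANKL, 45.4 with I-BET, and 34.4 and 55.5 in untreated cells.

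**Figure D1:**
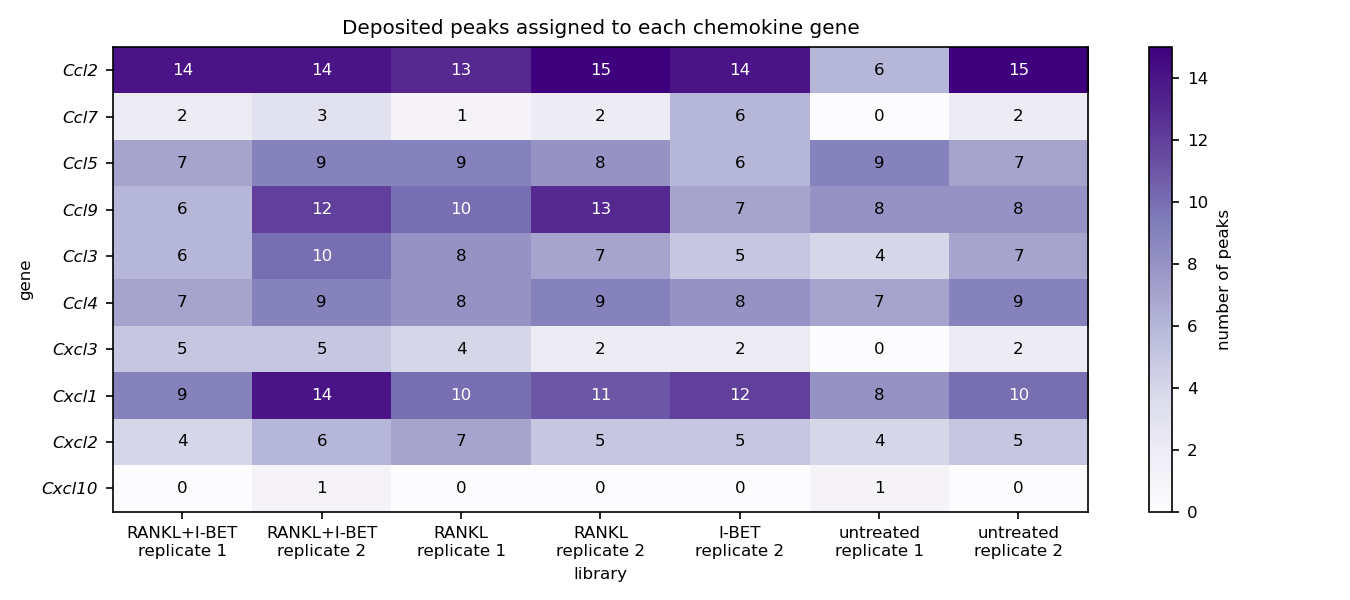
Number of deposited peaks assigned to each of the 10 chemokine genes (rows) in each library (columns), with darker cells for more peaks. Untreated replicate 1 had 6 peaks at Ccl2, where the other libraries had 13 to 15, and no peak at Ccl7 or Cxcl3.

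The regions in which groups separated were few. A region was placed in a class when both libraries of one group called it and neither library of the other did. With RANKL, 5 of the 90 member regions called in any of the 4 libraries (5.56%) were RANKL-only against untreated cells, where all regions gave 3.37%, and none was untreated-only, where all regions gave 0.748%. They lay at 4 of the 10 genes (Ccl3, Ccl9, Cxcl1 and Cxcl3). Of all genes with a region in these libraries, 27.5% held at least 1 RANKL-only and 8.6% at least 1 untreated-only region. The 33 member regions called in all 4 libraries made up 36.7%, against 18.2% of all regions.

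No member region called in both RANKL libraries was missing from both RANKL+I-BET libraries. Of 96 member regions, 2 (2.08%) were RANKL+I-BET-only against RANKL, at Cxcl1 and Cxcl3, a share near the 1.86% of all regions. None was RANKL-only, where all regions gave 0.571%. Of all genes with a region, 18.2% held at least 1 RANKL+I-BET-only and 6.14% at least 1 RANKL-only region. Both RANKL+I-BET libraries and both RANKL libraries called 46 of the 96 (47.9%), against 26.8% of all regions.

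Between RANKL+I-BET and untreated cells, 7 of 91 member regions (7.69%) were RANKL+I-BET-only, against 3.73% of all regions, and none was untreated-only, against 0.458%. They lay at 4 of the 10 genes, Cxcl3 (3), Cxcl1 (2), Ccl3 (1) and Ccl4 (1). Of all genes with a region, 30.5% held at least 1 RANKL+I-BET-only and 5.63% at least 1 untreated-only region. This comparison and the one of RANKL with untreated cells share the untreated libraries. With 2 libraries against 2, an exact permutation test cannot give a p below 0.33, so no p is given for these counts.

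**Figure D2:**
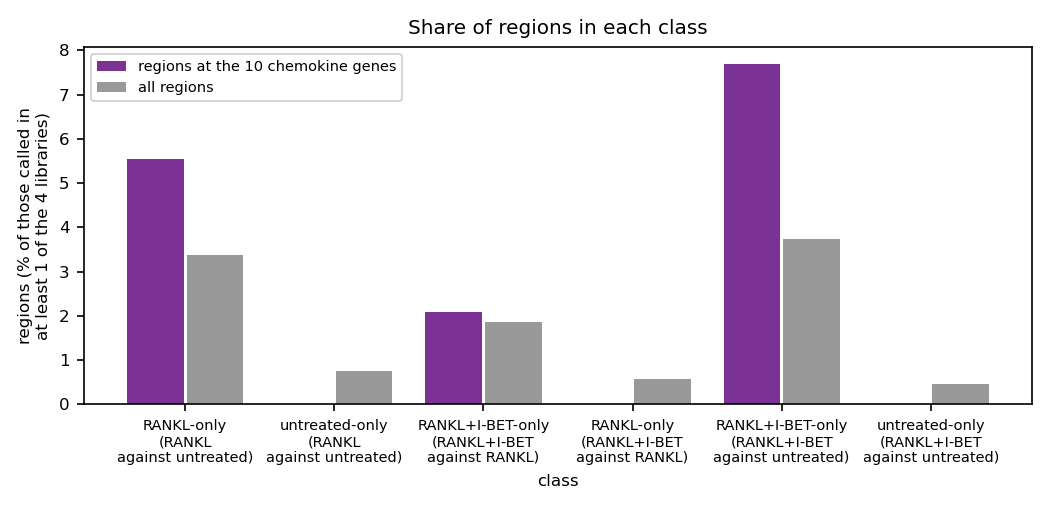
Percentage of regions called in both libraries of one group and neither of the other, for the 10 chemokine genes (purple) and for all regions (grey), in 3 comparisons. The member share is 5.56%, 2.08% and 7.69% for the first group of each comparison and 0 for the second.

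The shares of RANKL-only member regions did not stand above all regions under every setting. At a -log10 q of at least 5, none of the 5 kept its class and 1 other was counted, at Ccl2, which was 1.82% of 55 member regions, against 4.42% of all regions. With windows of 100 bp around summits, 3 of the 5 kept their class and the share was 3.57%, against 3.65% of all regions. Without untreated replicate 1 the 5 were 5.88%, against 5.58% of all. Leaving out another library moved the share in all regions too: 13 member regions were 16.5% (all regions 16.0%) without RANKL replicate 1, and 16 were 19.5% (all regions 23.9%) without RANKL replicate 2. Without untreated replicate 2, 19 were 22.4% (all regions 13.2%).

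The count of 7 RANKL+I-BET-only regions against untreated cells became 2 at that q, 2.94% of member regions and 4.03% of all regions. Of the 7, 1 at Cxcl3 kept its class, and the other region counted, at Ccl3, was not among the 7. Without RANKL+I-BET replicate 1 the 23 counted were 25.8% (all regions 26.0%), and without untreated replicate 2 the 20 counted were 22.7% (all regions 12.3%). Against RANKL, leaving out RANKL+I-BET replicate 1 gave 15 RANKL+I-BET-only regions, 15.8% of member regions and 20.6% of all regions.

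Cxcl3, a neutrophil chemokine (chr5:90786101-90788093, plus strand), held 5 member regions, and 4 of them entered a class. Its peaks numbered 5 and 5 with RANKL+I-BET, 4 and 2 with RANKL, 2 with I-BET, and 0 and 2 in untreated cells. The RANKL+I-BET libraries thus had at least as many peaks there as any other library, and untreated replicate 1 had none.

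The region just inside Cxcl3 (chr5:90786178-90786600) was called in both RANKL+I-BET, both RANKL and the I-BET library and in neither untreated library. Its deposited folds over background were 3.25 and 3.84 with RANKL+I-BET, 4.10 and 4.27 with RANKL, and 2.36 with I-BET. The fold, like the -log10 p and q, is the authors' own value, and it serves here only to describe or rank peaks within 1 list, since folds of different lists are not on one scale. The I-BET peak had a -log10 q of 0.531, the lowest of the 5, and the others had 3.52, 15.7, 6.52 and 4.74. The summits lay 191 to 265 bp after the start of the gene.

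Upstream of Cxcl3, the region ending 2 bp before the start (chr5:90785529-90786099) was called in both RANKL+I-BET libraries (folds 3.46 and 3.77) and in RANKL replicate 1 (2.93). The summits lay 238 to 253 bp before the start. In RANKL+I-BET replicate 2 the peak covered the decamer and the other capitals of the Cxcl3 sequence shown above. In the other 6 libraries no peak covered them. The peak of RANKL+I-BET replicate 1 in this region ended at chr5:90785980, just before the first of these capitals.

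A second upstream region of Cxcl3 (chr5:90783660-90784139) was called in the same 3 libraries, with folds of 5.69 and 3.71 in the RANKL+I-BET libraries and 2.54 in RANKL replicate 1. The summits lay 2074 to 2243 bp before the start. Both upstream regions were therefore RANKL+I-BET-only against untreated cells and not against RANKL.

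At the far end of Cxcl3, a region (chr5:90788092-90788531) was called in both RANKL+I-BET libraries (folds 2.44 and 4.92) and in untreated replicate 2 (3.91), so it was RANKL+I-BET-only against RANKL. The remaining region of Cxcl3 (chr5:90789472-90790244) lay 1765 bp past the gene and was called in all libraries but untreated replicate 1. Its folds were 3.66 and 5.52 with RANKL+I-BET, 3.13 and 3.29 with RANKL, 4.73 with I-BET and 7.82 in untreated replicate 2.

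**Figure D3:**
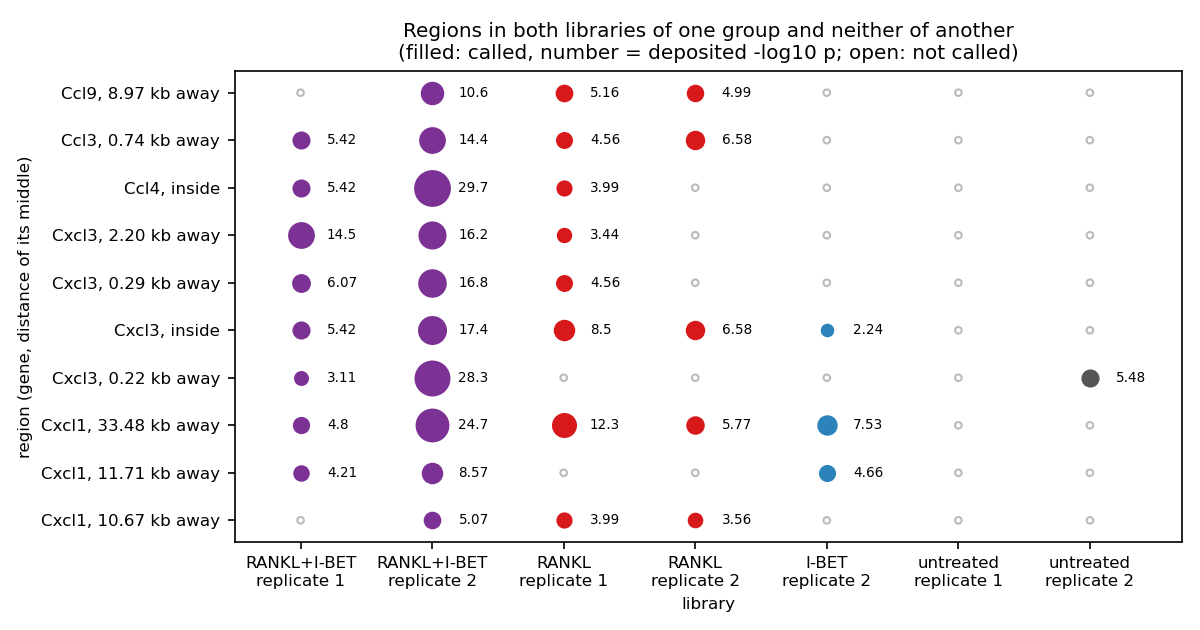
The 10 member regions called in both libraries of one group and neither of another, by gene and distance of the region's middle from the gene body (rows), in 7 libraries (columns). Filled points are calls, sized by the deposited -log10 p printed beside them, and open points are libraries with no call. Of the 10 regions, 9 have no call in either untreated library, and that past the end of Cxcl3 has 1.

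Cxcl1, another ligand of Cxcr2 (chr5:90891245-90893121, plus strand), held 15 member regions and 6 called in all 7 libraries. None of them lay on the start of the gene. The nearest peak was 2800 and 2942 bp away with RANKL+I-BET, 2941 and 2983 bp with RANKL, 2970 bp with I-BET, and 2924 and 2952 bp in untreated cells, all past the gene's end. Thus the Cxcl1 sequence shown above, with its decamer, was under no peak in any library.

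Of the Cxcl1 regions, 3 entered a class, all upstream. The first (chr5:90857506-90858028), whose middle lay 33478 bp from the gene, was called in all 5 treated libraries and neither untreated library. Its folds were 3.05 and 4.58 with RANKL+I-BET, 5.08 and 3.94 with RANKL, and 5.20 with I-BET. The second (chr5:90880324-90880827), 10669 bp away, was called in RANKL+I-BET replicate 2 (2.22) and both RANKL libraries (2.74 and 2.96).

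The third Cxcl1 region (chr5:90879300-90879772), 11709 bp away, was called in the 3 libraries with I-BET and in none of the 4 without. Its folds were 2.85 and 2.76 with RANKL+I-BET and 3.78 with I-BET. It was the 1 member region of that pattern, and 0.142% of all regions had it. No member region was called in all 4 libraries without I-BET and none with it, and 0.00755% of all regions were. The leading Cxcl1 region, that called in most libraries with the best median rank (chr5:90881336-90882595), lay 9279 bp away and had folds of 23.2 and 22.8 with RANKL+I-BET, 25.4 and 30.6 with RANKL, 15.6 with I-BET, and 7.90 and 23.5 in untreated cells.

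Cxcl2, the third neutrophil chemokine (chr5:90903899-90905938, plus strand), was open at its start in every library. The region (chr5:90902767-90904349) had folds of 62.4 and 35.2 with RANKL+I-BET, 57.4 and 24.3 with RANKL, 18.4 with I-BET, and 37.5 and 21.7 in untreated cells. Its peaks covered the decamer of the sequence shown above in all 7 libraries. None of the 8 Cxcl2 regions entered a class.

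The decamer was thus under a peak in 7 libraries at Cxcl2, in 1 at Cxcl3 and in none at Cxcl1. The presence of the same letters went with different calls at the 3 genes, and binding was not measured. Just inside Cxcl3, the peaks of both RANKL+I-BET libraries, RANKL replicate 2 and the I-BET library began on the same base, 116 bp from the start. How uniquely reads could be placed there was not tested, so an uncovered decamer was not read as closed chromatin.

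**Figure D4:**
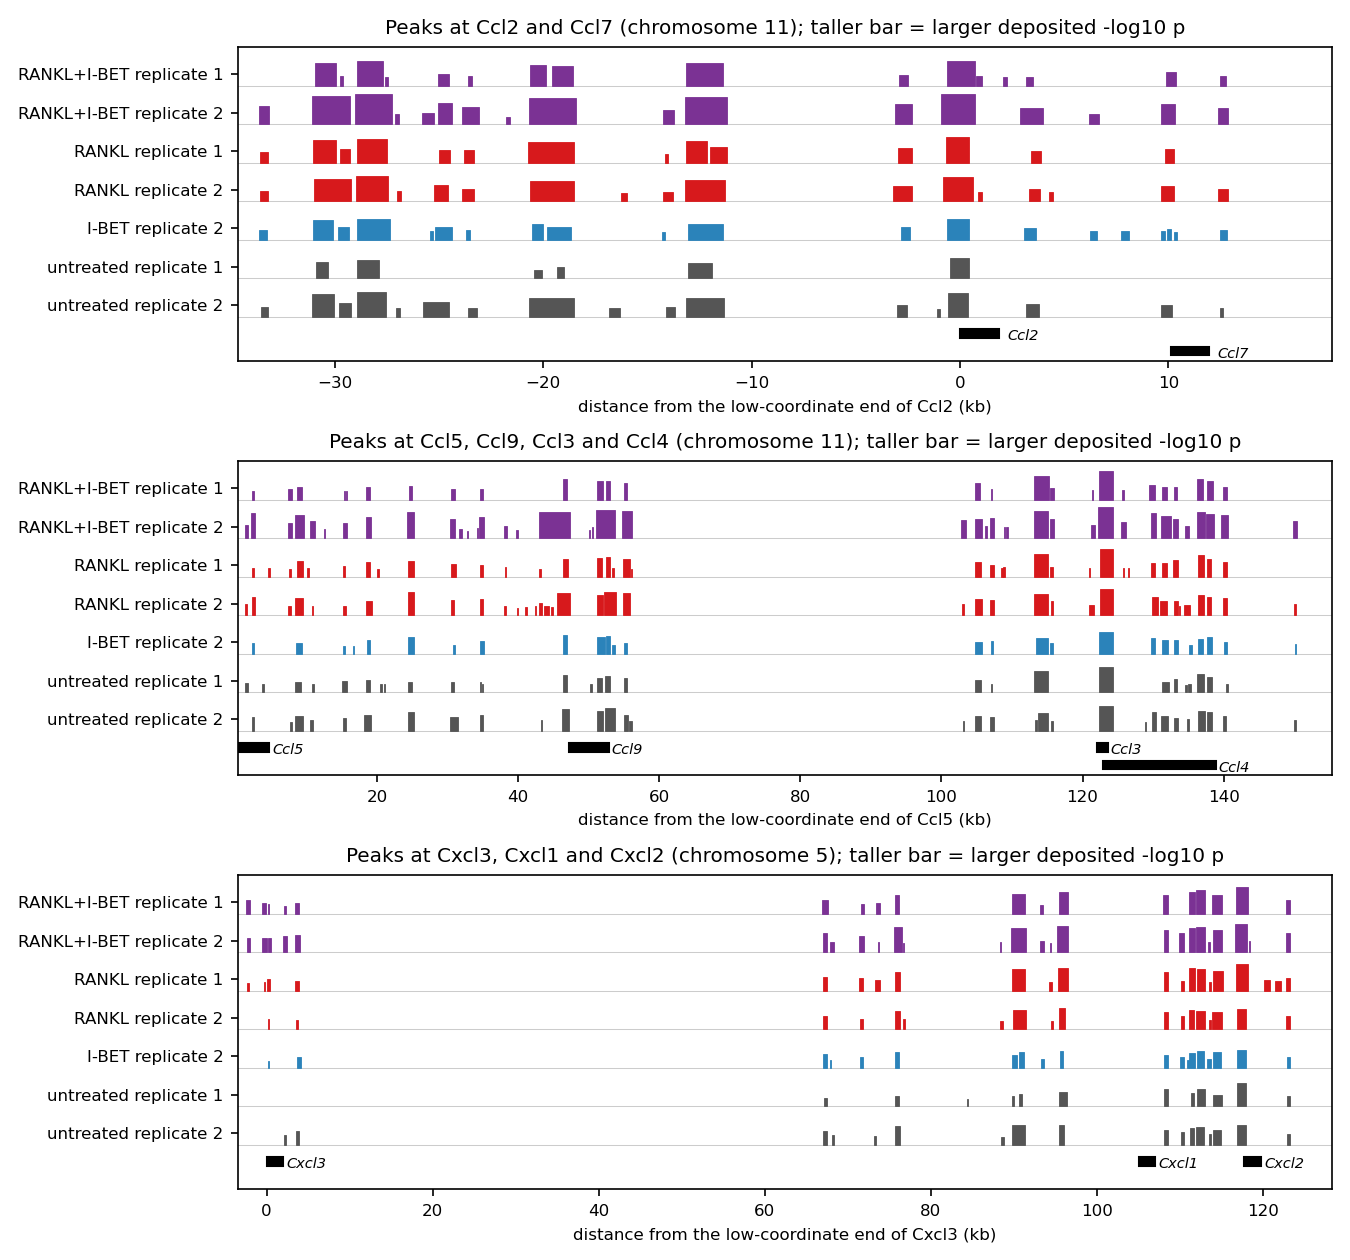
Deposited peaks in 3 clusters (panels) by distance in kb from the low-coordinate end of the first gene, with 1 row per library and black bars for gene bodies. Bars are taller for a larger deposited -log10 p. Most strong peaks stand in the same place in all 7 rows, and the peaks at Cxcl3 are small and absent from untreated replicate 1.

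Cxcl10, the interferon-induced member (chr5:92346638-92348889, minus strand), was set apart by the rule itself. The region over its start (chr5:92348125-92349984) was called in all 7 libraries, but its midpoint lay in the overlapping body of Art3, so it was not a member. Its folds were 12.0 and 23.0 with RANKL+I-BET, 12.9 and 23.7 with RANKL, 17.5 with I-BET, and 11.6 and 20.3 in untreated cells. In every library its peak covered the ISRE, AP-1 and NF-kB letters of the Cxcl10 sequence shown above. The 1 member region of Cxcl10 (chr5:92346995-92347276) was called in RANKL+I-BET replicate 2 only, with a fold of 2.36. A peak of untreated replicate 1 with its midpoint inside Cxcl10 was joined to the start region.

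Ccl3, a ligand of Ccr1 (chr11:83647843-83649378, minus strand), had the highest fold of the 10 genes in 6 of the 7 lists, and in untreated replicate 2 that of Ccl2 was higher. Its start region (chr11:83648007-83650117) had folds of 83.4 and 58.4 with RANKL+I-BET, 68.0 and 73.9 with RANKL, 35.0 with I-BET, and 57.5 and 59.4 in untreated cells. It ranked within the top 0.690% to 1.69% of peaks of each list, and its summits lay 220 to 328 bp before the start. The RefSeq body of Ccl4 overlaps that of Ccl3, and the shared stretch was given to Ccl3, the shorter gene.

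A small region past the end of Ccl3 (chr11:83646688-83647515), 741 bp from the gene body, was the 1 member region called in all 4 libraries with RANKL and in none of the 3 without. Its folds were 3.25 and 3.50 with RANKL+I-BET and 2.93 and 4.27 with RANKL. The peak of RANKL replicate 1 shared 0 bp with the peak of either RANKL+I-BET library and 147 bp with that of RANKL replicate 2, which joined them into 1 region. With summit windows, or with peaks covering 50% of a region, it was no longer RANKL-only against untreated cells. Of all regions, 0.529% had this pattern, and 0.0244% had the opposite one, which no member region had.

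Ccl4, a close relative of Ccl3 (chr11:83648624-83664683 in the table), held 12 regions, 10 inside the gene body and 5 called in every library. The leading one (chr11:83662039-83663115) had folds of 18.5 and 22.9 with RANKL+I-BET, 22.3 and 23.7 with RANKL, 9.93 with I-BET, and 13.8 and 23.8 in untreated cells. Inside the gene, 1 region (chr11:83651274-83651931) was called in both RANKL+I-BET libraries (3.25 and 5.05) and in RANKL replicate 1 (2.74), which made it RANKL+I-BET-only against untreated cells.

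Ccl9, a ligand of Ccr1 (chr11:83572917-83578636, minus strand), was open over its start (chr11:83576799-83579698) in all libraries. The folds were 12.8 and 37.0 with RANKL+I-BET, 16.4 and 37.8 with RANKL, 18.0 with I-BET, and 10.7 and 36.3 in untreated cells. Divided by the fold of the Ccl3 start region in the same list, they came to 0.154 and 0.633 with RANKL+I-BET, 0.241 and 0.511 with RANKL, 0.514 with I-BET, and 0.186 and 0.611 in untreated cells. Every replicate 1 library had a lower ratio than every replicate 2 library. A region 8968 bp past the end of the gene (chr11:83563739-83564158) was called in both RANKL libraries (3.13 and 3.61) and RANKL+I-BET replicate 2 (3.03).

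Ccl5, which draws T cells and monocytes (chr11:83525778-83530518), had no region in a class. The table gives no strand for Ccl5, Ccl2, Ccl7 or Ccl4, so ends are named by coordinate. A peak lay over its high-coordinate end in RANKL replicate 1 alone (chr11:83530366-83530641, fold 2.74). Its leading region (chr11:83549991-83551080), 20018 bp away, was called in all libraries, with folds of 5.69 and 24.9 with RANKL+I-BET, 7.23 and 37.8 with RANKL, 13.7 with I-BET, and 3.95 and 17.4 in untreated cells. Over the Ccl3 start region of the same list, these came to 0.0683 and 0.426 with RANKL+I-BET, 0.106 and 0.511 with RANKL, 0.392 with I-BET, and 0.0686 and 0.293 in untreated cells. Here too every replicate 1 library had a lower ratio than every replicate 2 library.

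Ccl2, the main monocyte chemokine (chr11:82035577-82037452), held the most member regions, 19, of which 5 were called in every library and none entered a class. The region over its low-coordinate end (chr11:82034688-82036309) had folds of 37.8 and 52.5 with RANKL+I-BET, 43.6 and 49.9 with RANKL, 28.8 with I-BET, and 20.3 and 48.0 in untreated cells. A distal region 28138 bp away (chr11:82006543-82008334) had folds of 36.8 and 48.5 with RANKL+I-BET, 33.6 and 58.8 with RANKL, 29.8 with I-BET, and 14.7 and 61.8 in untreated cells. In untreated replicate 2 this distal region had a higher fold than the Ccl3 start region, and in the other 6 lists a lower one.

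Ccl7, the neighbour of Ccl2 (chr11:82045712-82047525), held 4 regions. That over its low-coordinate end (chr11:82045208-82045999) was called in all libraries but untreated replicate 1, with folds of 5.90 and 9.36 with RANKL+I-BET, 6.06 and 9.86 with RANKL, 4.73 with I-BET, and 5.33 in untreated replicate 2.

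**Figure D5:**
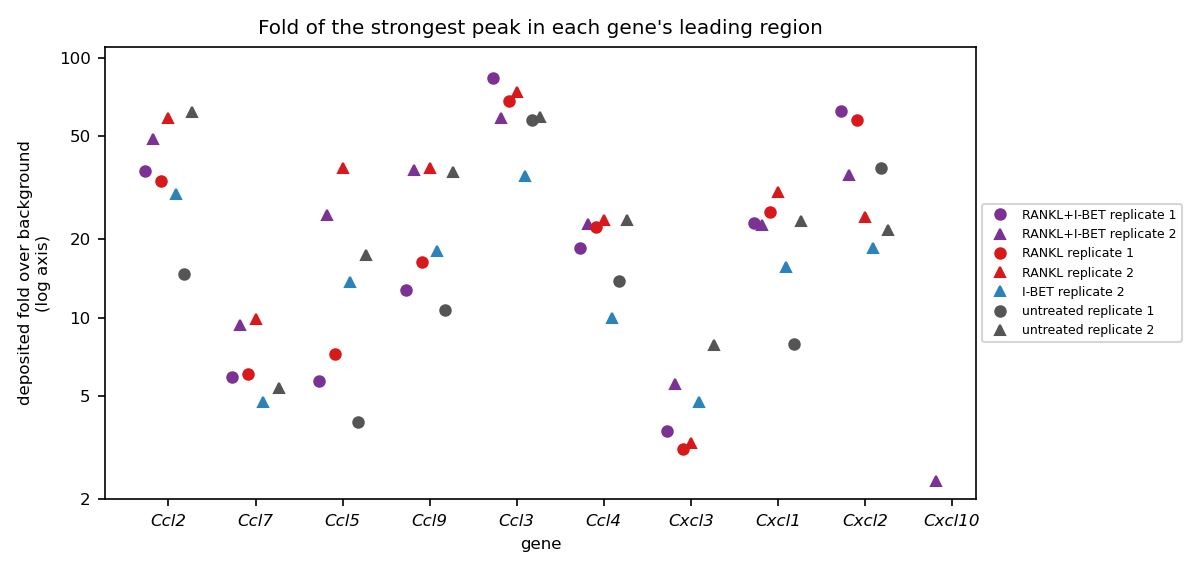
Deposited fold over background of the strongest peak in each gene's leading region, that called in most libraries and ranked highest, on a log axis. Circles are replicate 1 and triangles replicate 2, and a missing point is a library with no call. Ccl3 has the highest fold in 6 of the 7 lists, and at Ccl5 and Ccl9 the circles lie below the triangles.

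The order of Cxcl2 and Ccl2 within a list also followed the replicate number. The fold at the Cxcl2 start divided by that at the Ccl2 low-coordinate end of the same list was 1.65 and 0.671 with RANKL+I-BET, 1.32 and 0.487 with RANKL, 0.639 with I-BET, and 1.85 and 0.452 in untreated cells. It was above 1 in all 3 replicate 1 libraries and below 1 in all 4 replicate 2 libraries, whatever the treatment. These ratios were chosen after their values were seen. Not every ratio split in this way. The leading Ccl4 region over the Ccl3 start gave 0.222 to 0.328 in replicate 1 and 0.284 to 0.401 in replicate 2 libraries. That of Cxcl3 overlapped too, and those of Ccl2, Ccl7, Ccl5, Ccl9, Cxcl1 and Cxcl2 did not. Of the 7 member regions called in 1 library each of RANKL and untreated cells, 5 were called in both replicate 2 libraries and none in both replicate 1 libraries, and of all 21639 such regions 15139 had calls of equal number. The part of replicate number in the class counts was not tested.

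A set of 9 member regions was called in every library but untreated replicate 1 (8.57%, against 3.98% of all regions). Of these 4 lay at Ccl2, and 1 each at Ccl7, Ccl5, Ccl3, Ccl4 and Cxcl3. Another 10 were called in RANKL+I-BET replicate 2 alone (9.52%, against 8.48% of all regions), 4 of them at Ccl9.

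I-BET alone had 1 library, so its calls have no replicate check. Of 72 member regions called in it or in untreated cells, 6 (8.33%) were called with I-BET and in neither untreated library, against 21.4% of all regions. They lay at Ccl7 (2), Cxcl1 (2), Ccl5 (1) and Cxcl3 (1). The reverse pattern held 1 region, at Ccl5 (1.39%, against 2.38% of all regions).

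Each of the 5 RANKL-only member regions was called in at least 1 RANKL+I-BET library. RANKL+I-BET replicate 2 called all 5, replicate 1 called 3, and both called the same 3 (60.0%), those at Ccl3, Cxcl3 and the distal Cxcl1 site. Of all 8594 RANKL-only regions, RANKL+I-BET replicate 2 called 7326, replicate 1 called 3425, and both called the same 3213 (37.4%). The I-BET library called 2 of the 5 and 32.1% of all.

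Related genes were counted in the same way, beside the 3.37% RANKL-only and 0.748% untreated-only of all regions. The other chemokine genes (24 of 25 in the gene table) held 244 regions in the RANKL and untreated libraries, of which 14 (5.74%) were RANKL-only, 4 of them at Xcl1 and 2 each at Ccl11, Ccl28 and Cxcl13. Another 5 (2.05%) were untreated-only, 2 of them at Ccl24, an eosinophil chemokine. The 23 receptor genes were near all regions, with 8 RANKL-only of 236 (3.39%), 2 of them at Cxcr5, the receptor of Cxcl13, and 2 untreated-only (0.847%), at Ccr7 and Xcr1. The 20 genes of upstream regulators had 16 RANKL-only of 416 (3.85%), also near all regions, with 4 at Jun, 4 at Nfkbiz and 3 at Nfkb1, and 6 untreated-only (1.44%). All 4 of these libraries called 31.0% of the regulator regions, 22.0% of the receptor regions and 15.6% of those at the other chemokine genes. The 10 genes had 36.7% and all regions 18.2%. All 7 libraries called 125 of 523 regulator regions, 51 of 295 receptor regions and 38 of 314 at the other chemokine genes. The genes named differ in their number of regions. Of the 314, Xcl1 held 76, Ccl28 19, Cxcl13 17, Ccl24 11 and Ccl11 3. Of the 523, Nfkb1 held 72, Cebpb 57, Fos 50, Nfkbiz 42, Jun 36 and Rela 14. Of the 295, Cxcr4 held 37 and Cxcr5 25.

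For RANKL+I-BET against RANKL, all regions gave 1.86% RANKL+I-BET-only and 0.571% RANKL-only. The other chemokine genes had 5 RANKL+I-BET-only regions of 239 (2.09%) and no RANKL-only region. The receptor genes had 2 of each class among 222 (0.901% each), both RANKL-only ones at Cxcr4, the receptor of Cxcl12. The regulators had 11 RANKL+I-BET-only regions of 434 (2.53%), with 2 each at Cebpb, Fos and Rela, and 1 RANKL-only region (0.230%), at Nfkb1. For RANKL+I-BET against untreated cells, the related lists also stood above the 3.73% RANKL+I-BET-only of all regions. The other chemokine genes had 17 of 238 (7.14%), the receptor genes 13 of 232 (5.60%) and the regulators 26 of 434 (5.99%), beside 7.69% at the 10 genes. Their untreated-only shares were 1.68%, 0.862% and 0.922%, against 0.458% of all regions.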

How the data were processed

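ATAC-seq of 50000 RAW264.7 cells per library was sequenced in 100 bp read pairs, as the labels' protocols state. The submitters' processing notes name mm10 and MACS2, Bowtie2, cutadapt, Picard, SAMtools, bedtools and FastQC, and their versions and settings are not given in the sources used here. The authors deposited 1 peak list per library, not pooled, with a score, a fold (a ratio to background) and -log10 values of p and of q for each peak. The authors' numbers served for description, ranking or filtering inside a single list, and the score was not used.

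Peaks of all lists sharing at least 1 bp were joined into regions, and a library called a region where its peaks overlapped it by at least 1 bp, so a change of height in a shared region was not measured. Regions went to the nearest of 21883 protein-coding gene bodies of RefSeq (GRCm38.p6) within 100000 bp, and inside several bodies to the shortest. The table gives no strand, so starts were known for the 6 genes with a RefSeq promoter only, and other ends are named by coordinate. Work used Python 3.11.15, pandas 2.3.3, numpy 2.4.6 and Biopython 1.88, and the joining and sorting steps were tested on simulated data. No read counts were held, so depth is unknown and no test was made. The members and gene lists were chosen with earlier results of these data known. All 10 members are named, with the regions at their starts, the leading region and every region that separates 2 groups. Alternatives were windows of 100 bp around summits, 50000 bp in place of 100000 bp, a cover of 50% of a region, a minimum -log10 q of 5, lists cut to 117175 peaks each, leaving out each library, and a replicate block.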

Additional observations from a re-analysis of the deposited data

How the results depend on the processing

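Depth was not given, so how far the calls depend on it could not be measured. The cause of the changes below was not tested. The 50000 bp window left all 6 class counts as they were. It could not change them, because the farthest member region lay 37875 bp from its gene. Against untreated cells, the RANKL-only count of 5 became 1 at a -log10 q of at least 5 and 4 with lists of equal length. The untreated-only count of 0 became 1 with peaks covering 50% of a region and 1 with summit windows. Leaving out 1 library gave 5 to 19 RANKL-only and 0 to 5 untreated-only regions. Over all regions the shares then were 5.58% to 23.9% and 1.54% to 26.2%. Leaving out a library loosens the class rule, so on the same regions a count can only stay or rise. For RANKL+I-BET against RANKL, the RANKL+I-BET-only count of 2 became 1 at that q, 4 at 50% cover and 1 with summit windows. At that q neither of the 2 kept its class, and the 1 counted was an upstream region of Cxcl3 (chr5:90783660-90784139). The RANKL-only count of 0 became 1 with equal lists, 2 at 50% cover and 1 with summit windows. Leaving out 1 library gave 3 to 15 and 0 to 7, where all regions gave 4.05% to 20.6% and 0.782% to 18.0%. For RANKL+I-BET against untreated cells, the count of 7 became 2 at that q, of which 1 was among the 7. It was 7 with equal lists, 8 at 50% cover and 9 with summit windows. The untreated-only count of 0 became 1 with summit windows, and leaving out 1 library gave 7 to 23 and 0 to 4. The labels do not say that a replicate number marks a culture or day, so equal numbers were not read as a pairing. The replicate block only set aside regions called in 1 library of each group where the 2 numbers were equal, so it is a count and not a test. It left 2 of 7 member regions for RANKL against untreated (6500 of 21639 over all regions). For RANKL+I-BET against RANKL it left 2 of 11 (9910 of 30978), and for RANKL+I-BET against untreated 2 of 11 (6679 of 28884).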
